A study of Mus musculus with 4 samples.

Results

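Among the BRG1/BRM islands of unstimulated mouse cortical neurons, 262 of 711 (36.8%, the share over the whole basal list) overlapped no island of depolarized neurons by even 1 bp. These 262 basal islands without a KCl island were selected on measured values, because both lists of islands were called from read counts. Their reads, folds and overlap are therefore given as descriptions, with no test. The other 449 basal islands, called shared islands below, overlapped at least 1 of the 20966 islands of the KCl list. Of the 262 islands, 19 held more than 100 control reads per kb of width and are described apart from the other 243.

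The cells were wild-type neurons cultured from the cortex of E16.5 mouse embryos and harvested after 6 days in vitro. Basal neurons were kept at the basal KCl level, and KCl neurons spent 1 h in 50 mM KCl, which depolarizes them. The cultures to be depolarized had been silenced on day 5 with 1 µM tetrodotoxin, a sodium channel blocker, and 100 µM APV, an NMDA receptor antagonist, and whether basal cultures had them too is not stated. Each condition had 1 immunoprecipitated (IP) library made with the J1 antibody, which recognizes both BRG1 and BRM, and 1 input library. No comparison between the conditions has a replicate check, cultures of embryonic cortex can hold glia and interneurons beside projection neurons, and island calls give no measure of gene expression by which the cell type could be checked.

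BRG1 (Smarca4) and BRM (Smarca2) are the alternative ATPase motors of the BAF complex, the mammalian SWI/SNF remodeller, which uses ATP to slide or evict nucleosomes and so changes access to promoters and enhancers. During neural development some BAF subunits are exchanged, and the neuronal form of the complex is known for roles in dendrite growth and in gene programs that respond to activity. An island is a run of 200 bp windows with many IP reads, joined across gaps of up to 600 bp. Each island as a whole then gets a p-value and an FDR from its IP and control reads. Its fold is the IP count over the control count after scaling for library size.

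Of the 262 islands, 18 of the 254 that could be placed against annotated transcript starts covered one (7.09%). Among all basal islands 5.92% did so, among shared islands 5.25% and among KCl islands 19.9%. In the 262, 22 promoter windows of 21 genes lay wholly inside an island. A promoter window here runs from 250 bases before a transcript start to 50 bases after it, in RefSeq's table for GRCm38.p6, the build of the files. The 4 windows printed first belong to genes outside repeated gene families. Glis1 encodes a zinc finger transcription factor, Prtg encodes protogenin, a membrane protein of the immunoglobulin superfamily, Gadd45a encodes a growth arrest and DNA damage protein, and Alg10b encodes a glucosyltransferase of N-glycan assembly. Capitals mark the GC box GGGCGG or its reverse complement CCGCCC, and neighbouring boxes may share a base. Each sequence reads 5′ to 3′ on the gene's strand.
Glis1, chr4:107434469-107434768, plus strand: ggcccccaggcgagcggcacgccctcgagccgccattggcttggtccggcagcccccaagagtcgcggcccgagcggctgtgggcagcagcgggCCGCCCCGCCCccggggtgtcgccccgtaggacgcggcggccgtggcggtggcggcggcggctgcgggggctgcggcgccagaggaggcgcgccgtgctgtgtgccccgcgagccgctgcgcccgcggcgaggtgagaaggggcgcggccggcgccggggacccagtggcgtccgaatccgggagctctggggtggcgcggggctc
Prtg, chr9:72807024-72807323, plus strand: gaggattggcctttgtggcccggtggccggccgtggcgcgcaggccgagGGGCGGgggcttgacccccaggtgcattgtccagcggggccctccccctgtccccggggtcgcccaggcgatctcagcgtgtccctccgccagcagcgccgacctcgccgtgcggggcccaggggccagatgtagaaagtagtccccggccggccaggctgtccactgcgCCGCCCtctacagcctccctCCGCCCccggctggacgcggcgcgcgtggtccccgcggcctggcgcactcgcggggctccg
Gadd45a, chr6:67037358-67037657, minus strand: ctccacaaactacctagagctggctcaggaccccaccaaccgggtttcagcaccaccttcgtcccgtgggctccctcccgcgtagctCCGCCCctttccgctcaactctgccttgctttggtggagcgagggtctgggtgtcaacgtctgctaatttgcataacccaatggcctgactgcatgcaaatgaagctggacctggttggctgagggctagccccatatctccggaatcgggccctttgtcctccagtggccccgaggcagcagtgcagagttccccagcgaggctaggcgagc
Alg10b, chr15:90224061-90224360, plus strand: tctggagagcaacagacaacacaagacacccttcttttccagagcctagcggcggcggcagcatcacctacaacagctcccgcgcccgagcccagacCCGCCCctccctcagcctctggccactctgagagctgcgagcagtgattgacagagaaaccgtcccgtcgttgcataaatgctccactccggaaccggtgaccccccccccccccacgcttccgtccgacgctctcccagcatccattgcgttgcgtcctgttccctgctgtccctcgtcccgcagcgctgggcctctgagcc

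The other pair shows another kind of promoter found in these islands, that of gene families in near-identical copies. Gm17019 and Speer4c belong to a group of promoters on chromosome 5 that resemble each other, and the Speer genes are known from testis, where they encode glutamate-rich proteins. Both windows come from the same RefSeq table, and capitals mark the 6 of 300 positions at which they differ.
Gm17019, chr5:15032958-15033257, minus strand: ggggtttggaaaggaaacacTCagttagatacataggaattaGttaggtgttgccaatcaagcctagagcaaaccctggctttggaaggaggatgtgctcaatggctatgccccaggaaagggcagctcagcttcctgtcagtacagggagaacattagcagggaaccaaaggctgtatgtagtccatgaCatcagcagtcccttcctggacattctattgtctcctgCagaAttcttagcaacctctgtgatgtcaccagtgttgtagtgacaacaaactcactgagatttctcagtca
Speer4c, chr5:15714222-15714521, minus strand: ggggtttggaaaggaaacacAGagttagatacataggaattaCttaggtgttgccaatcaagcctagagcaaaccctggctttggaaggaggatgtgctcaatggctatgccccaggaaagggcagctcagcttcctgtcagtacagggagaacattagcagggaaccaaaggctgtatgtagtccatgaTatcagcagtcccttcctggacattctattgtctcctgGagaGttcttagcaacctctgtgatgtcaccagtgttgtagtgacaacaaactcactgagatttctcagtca

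The first 4 windows were rich in G and C, and the Speer-type windows were not. GC content was 81.3% at Glis1, 76.7% at Prtg, 64.3% at Alg10b and 61.0% at Gadd45a, with 47, 35, 22 and 14 CpG dinucleotides. The windows of Gm17019 and Speer4c each had 47.0% GC and 0 CpG. None of the 31-base words of the Glis1, Prtg, Gadd45a and Alg10b windows occurred at another position in the promoter table, whereas 75.2% of those of Gm17019 and 88.5% of those of Speer4c did.

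Taken over all 22 windows, the median GC content was 48.8%, below that of the 30 promoter windows inside shared islands (65.8%), of the 5286 inside KCl islands (64.3%) and of all 32851 in the table (52.7%). The median number of CpG dinucleotides was 3, against 24.5 in shared islands, 24.0 in KCl islands and 7.0 in the whole table. In 6 of the 22 windows (27.3%) most of the 31-base words also occurred elsewhere in the table, compared with 6.67% in shared islands, 0.700% in KCl islands and 4.53% of all windows. These 6 belonged to Gm17019, Gm21083, Speer4d and Speer4c on chromosome 5, to A530032D15Rik on chromosome 1 and to 4930578G10Rik on chromosome 4. In 16 windows (72.7%) no such word occurred elsewhere. Among these were windows not rich in G and C, such as those of Klra7 (33.0% and 37.7% GC) and Gm2427 (48.0%). The 4 windows on chromosome 5 were 97.2% to 98.2% identical in every pair, without gaps, over the 265 to 300 bases that could be aligned. The part that repeated sequence plays in the calls was not tested.

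Motifs were searched on both strands, and the shares in the 22 windows stood close to those of the whole table. The GC box was present in 8 (36.4%, against 35.7% of all windows), the TATA box TATAAA in 4 (18.2%, against 13.6%), the AP-1 motif TGANTCA in 2 (9.09%, against 7.81%) and the E-box CACGTG in 2 (9.09%, against 7.15%). The full cAMP response element TGACGTCA was found in 0 of the 22 and in 1.79% of all windows. In the 30 windows inside shared islands the GC box stood at 53.3% and the TATA box at 3.33%. Inside KCl islands they stood at 68.4% and 7.02%. The AP-1 motif stood at 3.33% in shared and 4.11% in KCl islands, and the E-box at 6.67% and 9.27%. None of these motifs contains another, and a match is a description of the letters only.

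The islands without a KCl counterpart were wider than shared islands, held more reads per island in both IP and control, and were less enriched. Their median width was 2800 bp (interquartile range 2000 to 4200 bp, range 200 to 81400 bp), against 1600 bp (1000 to 2200 bp) for shared islands. Widths of at least 5 kb occurred in 54 of 262 (20.6%) and in 12 of 449 shared islands (2.67%). The median IP count was 69 reads against 45, and the median control count 49 reads against 25. The larger IP count did not hold per kb, where the IP median was 26.2 reads in these islands and 28.1 in shared islands. Per kb, the control held a median of 18.6 reads (interquartile range 15.6 to 28.4) in these islands and 15.4 (13.0 to 18.0) in shared islands. It held 9.38 in KCl islands, whose control is another library.

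The median fold was 1.52 (interquartile range 1.32 to 1.77, range 1.06 to 5.91), against 2.03 (1.70 to 2.56) for shared islands and 1.80 over the whole basal list. A fold of at least 2 was reached by 29 of 262 (11.1%), where 36.4% of all basal islands reached it. An FDR of at most 1e-05 was reached by 31 (11.8%), where 28.3% of all basal islands reached it. The interval of the fold, which lets both counts vary, lay above 1 at 206 of 262 (78.6% [73.2 to 83.4]), where it did at 85.5% of all basal islands. Folds below 1.5 made up 47.7% of these islands and 8.02% of shared islands. Brackets hold 95% exact intervals, which cover counting error only and do not allow for the selection of islands by their enrichment.

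Low enrichment and dense control went together. The 183 islands with up to 25 control reads per kb had a median fold of 1.65 and a median width of 2600 bp. The 60 islands with 25 to 100 control reads per kb had a median fold of 1.26 and a median width of 5700 bp. The 19 islands over 100 had a median fold of 1.15. More than 25 control reads per kb occurred in 79 of the 262 islands (30.2%), in 18 of the 449 shared islands (4.01%) and in 24 of the 20966 KCl islands (0.114%). The KCl list has another control library (median 9.38 reads per kb in its islands), so the cut is not equivalent there. Fold has the control count in its denominator, so the 2 values are not independent.

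**Figure D1:**
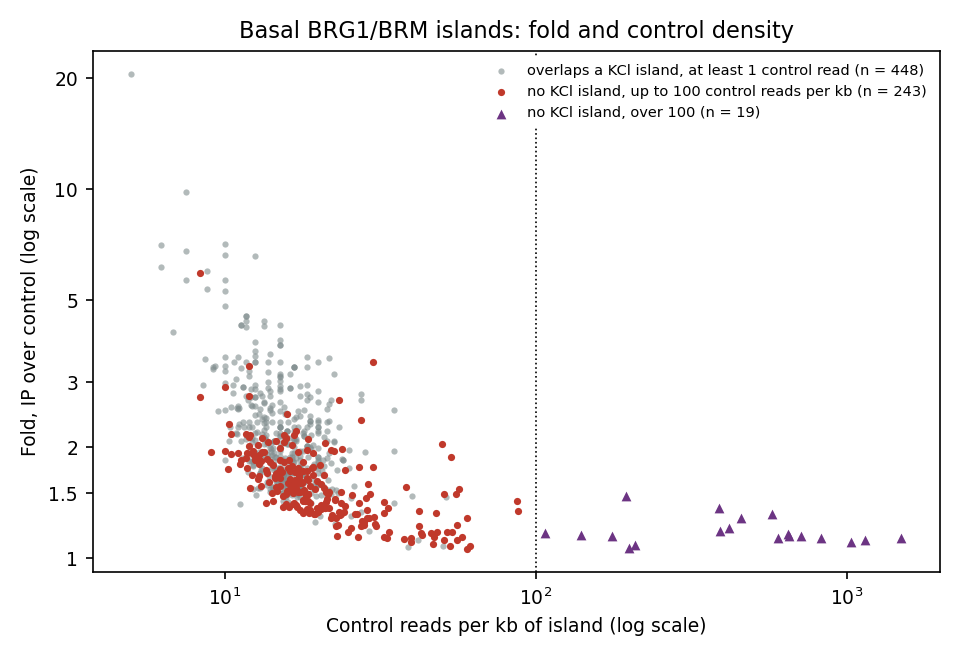
Fold of IP over control (vertical, log scale) against control reads per kb (horizontal, log scale) for each basal island with at least 1 control read. Red points and purple triangles have no KCl island, grey points overlap a KCl island, and the dotted line marks 100 control reads per kb, to the right of which lie 19 islands, all without a KCl counterpart and with folds from 1.07 to 1.47.

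Islands over 100 control reads per kb were 19 of all 711 basal islands (2.67%), and all 19 were among those without a KCl island. The densest shared island held 51.3 control reads per kb. In the KCl list 3 islands passed the same line, near Axin2 (195), Zc3h7a (172) and Peak1 (112 control reads per kb). The KCl control is another library, so the line is not equivalent there. The 19 basal islands covered 0.164 Mb and held 76930 IP reads, 54.2% of all IP reads in basal islands, beside 78204 control reads. In 6 of the 19 the IP count did not exceed the control count, and the fold is above 1 there through the division by the library ratio of 0.880.

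The largest of these islands lay on chromosome 9, 2999801 to 3038600, 297 kb from the nearest end of a protein-coding gene, that of Alkbh8. It held 43712 IP reads and 44253 control reads over 38800 bp, 1141 control reads per kb, and its fold was 1.12 [1.11 to 1.14]. The second by reads covered an end of Sfi1, which encodes a centrosomal protein, on chromosome 11, 3118801 to 3200200. It was the widest of all basal islands at 81400 bp and held 16148 IP and 16916 control reads (1.08-fold [1.06 to 1.11]). Next by reads was an island 114 kb from Gm2244 on chromosome 14, 19415601 to 19419800, where 4229 IP reads stood against 4345 control reads (1.11-fold [1.06 to 1.15]). These 3 were also the 3 largest of the whole basal list and held 55.0% of the IP reads of the 262 islands. The counts are deep, so the intervals are narrow and lie above 1, but with a library ratio 10% larger the fold would be at or under 1 at 2 of the 19, those of Sfi1 and Tmem267.

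The densest control signal was found in a pair of islands on chromosome 2, over 1 Mb from the nearest gene end, that of Lrrc4c, which encodes a netrin-G ligand. The island at 98666201 to 98667400 held 1797 IP and 1796 control reads, 1497 control reads per kb (1.14-fold [1.06 to 1.21]). Its neighbour at 98662201 to 98665400 held 2104 IP and 2087 control reads, 652 per kb (1.15-fold [1.08 to 1.22]). IP and control were thus nearly equal in number at both.

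Of the other 14, 9 held more than 300 control reads per kb. Those nearest to Rpusd4 (829 control reads per kb), Mrgprd (711), Fgf14 (649) and Gm45871 (599) had folds of 1.13, 1.15, 1.17 and 1.13. The interval of the island near Gm45871, 0.995 to 1.29, was the only one of the 19 that did not lie above 1. Islands near Tmem196 (577 control reads per kb), Asmt (458) and Tcstv3 (388) had the higher folds of 1.32, 1.29 and 1.37. Those near Wls (417) and Ly6c2 (390) stood at 1.21 and 1.18. Wls encodes the carrier that secretes Wnt proteins, and its island lay 0.535 kb from the gene end.

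The remaining 5 held 107 to 200.1 control reads per kb. They lay inside Tmem267 (200.1 control reads per kb, 1.07-fold), and nearest to Nbea, which encodes neurobeachin (195, 1.47-fold), Gm39469 (176, 1.15-fold), Tcte2 (139, 1.16-fold) and Vmn1r238 (107, 1.17-fold). The island near Nbea was the smallest in reads of the 19, with 101 IP and 78 control reads, and its fold of 1.47 was the highest of them. Just under the line stood an island near Gm40035 (87.5 control reads per kb, 1.34-fold) and an island inside Smo, which encodes the transducer of Hedgehog signals (87.1, 153 IP and 122 control reads, 1.43-fold).

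The 262 islands lay close to each other on the chromosomes more often than shared islands did. When islands with at most 500 kb between neighbours were joined and groups of at least 3 were kept, 129 of 262 (49.2% [43.0 to 55.5]) fell into 22 clusters, and 30 of 449 shared islands (6.68%) fell into 9. With a gap of 100 kb the shares were 35.9% and 1.56%. The rule for clusters was chosen after the positions had been seen, and the interval treats islands as independent, which islands of a cluster are not. Together the 22 clusters spanned 8.96 Mb, in which the KCl list had 39 islands, and 6 clusters contained 0 KCl islands.

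Members of clusters had a median fold of 1.40 and 21.7 control reads per kb, and the other 133 islands 1.65 and 16.7. A fold of at least 2 was reached by 8 of 129 in clusters (6.20%) and by 21 of 133 outside them (15.8%). Control density over the islands of a cluster was above the shared median of 15.4 reads per kb in 21 of 22 clusters and ran up to 70.8. In 15 clusters every fold was below 2.

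Several clusters lay among related genes, and those described here were chosen after their values had been seen. The largest held 16 islands on chromosome 2, 176861201 to 177822600, among predicted genes and Zfp970, of the family of zinc finger proteins. Its folds ran from 1.15 to 1.83, its control density was 23.4 reads per kb, and 2 KCl islands lay in its span of nearly 1 Mb. A cluster of 14 on chromosome 13, 65359401 to 66871200, also contained a zinc finger gene, Zfp640, among predicted genes. Its folds ran from 1.28 to 2.90, and its highest value belonged to an island 7.28 kb from Gm10323. Another zinc finger region on chromosome 4, 147126601 to 147587000, held 4 islands at Zfp978, Zfp982 and Zfp985 (1.33 to 2.68).

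On chromosome 1, 84987201 to 85654400, 12 islands covered 193.6 kb around A530032D15Rik, Sp110, Sp140 and Sp100, the last 3 of which encode nuclear body proteins induced by interferon. They held 8957 IP and 9167 control reads, 47.4 control reads per kb, with folds from 1.06 to 1.44 and 0 KCl islands in the span. On chromosome 6, 130119001 to 130372000, 8 islands lay among the Klra genes, which encode Ly49 receptors of natural killer cells. Their folds ran from 1.22 to 1.75 at 23.5 control reads per kb, beside 3 KCl islands. On chromosome 3, 106128201 to 106300400, 6 islands lay at Chia1, Chil3 and Chil4, the genes of a chitinase and of chitinase-like proteins. This cluster had 18.2 control reads per kb, folds from 1.37 to 1.76 and 6 KCl islands within 172 kb.

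On chromosome 5, 15574001 to 15716400, 5 islands with 5885 IP and 6033 control reads covered 120.0 kb at Gm21083, Speer4d and Speer4c. Their control density was 50.3 reads per kb, their folds ran from 1.08 to 1.34, and 0 KCl islands lay among them. On chromosome 13, 12801001 to 12890800, 7 islands (1.23 to 2.15) were nearest to Prl2c3, of the placental prolactin family. On the X chromosome, 7 islands lay between 31137601 and 32078200 near Spin2f and its relatives (1.24 to 1.43), and 5 lay between 170734601 and 170847000 near Asmt, whose product makes melatonin (1.29 to 2.08). A cluster of 5 at Glo1 and Dnah8 on chromosome 17, 30600601 to 30878400, had folds from 1.37 to 2.07 and 3 KCl islands in its span. Glo1 encodes glyoxalase 1, and Dnah8 an axonemal dynein chain.

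**Figure D2:**
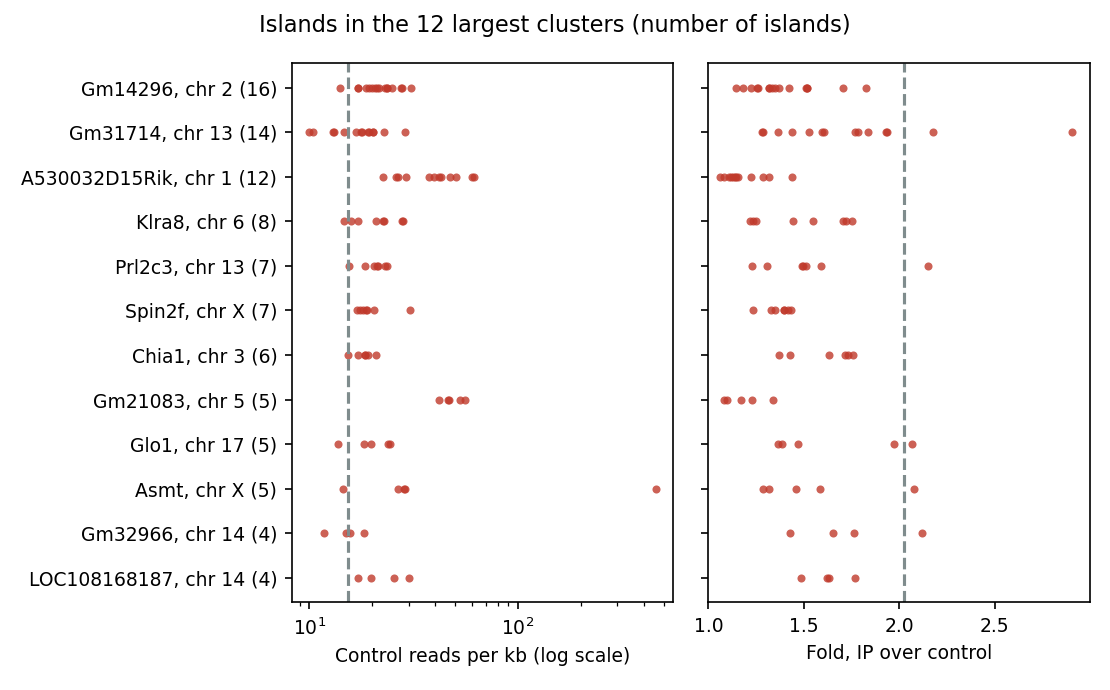
Each point is an island of the 12 largest clusters, named by the first gene and the chromosome, with the number of islands in brackets. The left panel gives control reads per kb (log scale), the right panel the fold of IP over control, and dashed lines mark the shared medians of 15.4 and 2.03, so most points lie right of the line in the left panel and left of it in the right panel.

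Nearest genes were also counted by classes of names. The nearest protein-coding gene was a predicted gene with a Gm or Rik name at 78 of 262 islands (29.8% [24.3 to 35.7]), against 6.01% of shared islands, 4.15% of KCl islands and 7.99% of all protein-coding genes. It was a Zfp gene at 17 (6.49% [3.82 to 10.2]), against 1.11%, 1.24% and 1.88%. Zfp genes were nearest to 14 of the 129 islands in clusters and to 3 of the 133 outside. Vomeronasal receptor genes were nearest at 5 islands (1.91%, against 0.223% of shared islands, 0.0477% of KCl islands and 1.62% of all genes). Olfactory receptor genes were nearest at 4 (1.53%, against 0.445%, 0.215% and 5.05%). A class of tandem genes with Speer, defensin and Mup names was nearest at 8 (3.05%, against 0.223%, 0.148% and 1.41%). Islands of a cluster share neighbours, so these counts are not independent observations.

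By chromosome, the X and Y held 20 of the 262 islands (7.63%), 2 of the 449 shared islands (0.445%) and 231 KCl islands (1.10%). On the X chromosome 15 of 17 basal islands had no KCl counterpart, and on the Y chromosome 5 of 5. Of those on X and Y, 16 lay in the 22 clusters. On the autosomes, chromosome 2 and chromosome 13 held the most with 27 each, followed by chromosome 3 with 23, chromosome 1 with 22 and chromosome 14 with 20. The lowest autosomal shares of basal islands without a KCl counterpart were 16.7% on chromosome 15 and 17.6% on chromosome 10.

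**Figure D3:**
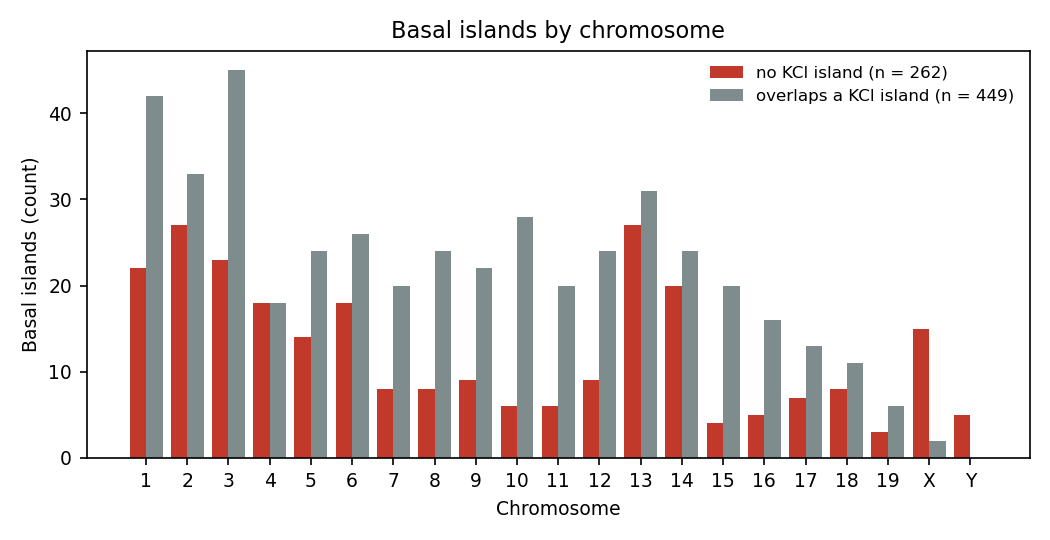
Number of basal islands (vertical) on each chromosome (horizontal), with red bars for islands without a KCl island and grey bars for shared islands. The red bar exceeds the grey bar on X (15 against 2) and on Y (5 against 0), while chromosomes 2 and 13 have the tallest red bars with 27 each.

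Relative to genes, the 262 islands lay less often inside genes and more often in the 50 kb next to them than shared islands. The rule kept places free of KCl islands, which have their own distribution around genes, so position is not independent of it, and shares are given with counting intervals and no test. The intervals treat islands as independent, which islands of the same cluster, 129 of the 262, are not. Inside a protein-coding gene and away from its ends lay 56 (21.4% [16.6 to 26.8]), against 41.6% [37.0 to 46.4] of shared and 35.6% of KCl islands. Outside genes, at 2 to 50 kb from an end, lay 95 (36.3% [30.4 to 42.4]), against 12.2% [9.36 to 15.6] of shared and 13.1% of KCl islands. Farther than 50 kb lay 69 (26.3%), against 36.7% and 28.2%. Within 2 kb of a gene end lay 42 (16.0% [11.8 to 21.0]), where 11.8% of all basal islands did so, 9.35% of shared islands and 23.2% of KCl islands. Without the 19 islands over 100 control reads per kb the first 3 shares were 22.6%, 36.2% and 24.7%, and 40 of 243 islands lay at gene ends.

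**Figure D4:**
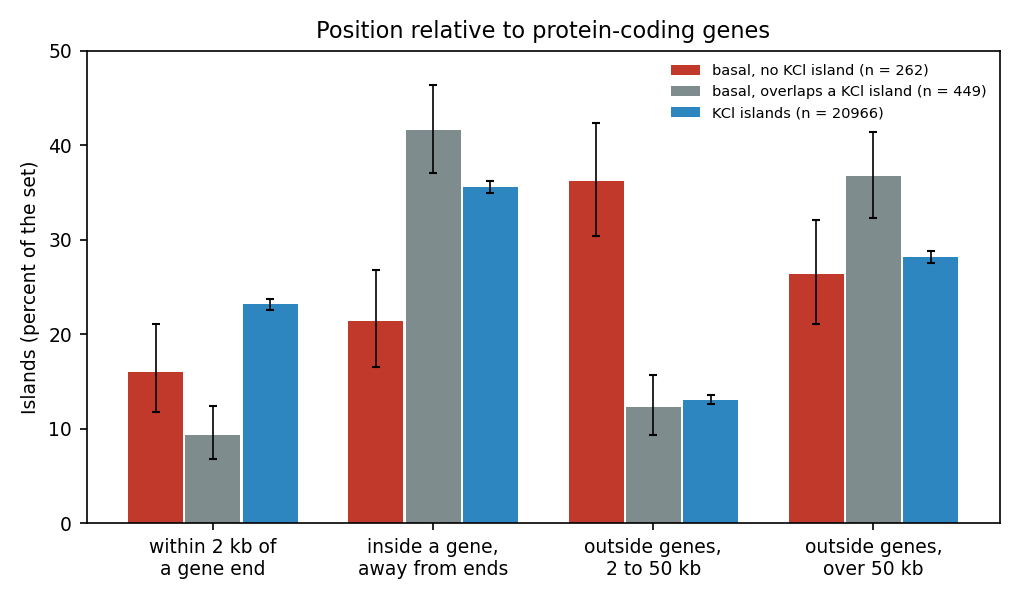
Percent of islands (vertical) in 4 exclusive positions relative to protein-coding genes (horizontal), with 95% exact intervals as error bars. The intervals treat islands as independent, although many lay in clusters. Basal islands without a KCl island (red) stand at 21.4% inside genes and 36.3% at 2 to 50 kb, and shared islands (grey) at 41.6% and 12.2%, with KCl islands in blue.

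The 42 islands at gene ends had a median fold of 1.62 (range 1.06 to 2.73), the 220 elsewhere 1.51. In 37 of the 42 the interval lay above 1, and 23 covered the end itself. Annotated transcript starts within 2 kb were found for 30 of 254 islands (11.8% [8.11 to 16.4]), against 8.90% of shared and 22.6% of KCl islands. Counted by genes, 46 of 21887 protein-coding genes (0.21%) lay with an end within 2 kb of such an island.

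Of the islands at the first 4 promoters printed above, that at the Glis1 start had the highest fold among islands at gene ends. The gene end there was that of the predicted gene Gm46866, and no end of Glis1 lay within 2 kb. That of Alg10b stood near the gene-end median. The island at the Glis1 start held 60 IP and 25 control reads (2.73-fold [1.68 to 4.54]) on chromosome 4, 107433401 to 107436400. At Prtg it held 41 IP and 19 control reads (2.45-fold [1.39 to 4.47]; chromosome 9, 72807001 to 72808200). At Gadd45a it held 41 IP and 23 control reads (2.03-fold [1.19 to 3.54]; chromosome 6, 67036401 to 67037800). At Alg10b it held 59 IP and 41 control reads (1.64-fold [1.08 to 2.50]; chromosome 15, 90223601 to 90226800). With 41 to 60 IP reads each, the 4 intervals overlap, and no order among them can be read.

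The other named gene ends were those of single genes and of families. Zfp982, a zinc finger gene, stood at 2.68-fold with 33 IP and 14 control reads, and Zfp985 at 1.64. At gene ends Zfp982 was second only to the island at Gm46866 and the Glis1 start. Sertad2, the gene of a transcriptional coregulator, stood at 1.80-fold. Copz1, the gene of a coatomer subunit, had 49 IP and 31 control reads (1.80-fold). Pth2r, the gene of parathyroid hormone receptor 2, stood at 1.70, Olfr209, an olfactory receptor gene, at 1.85, and Dnah8 at 1.97. The chemokine gene Ccl27b and the predicted gene Gm5796 had equal counts of 41 IP and 22 control reads (2.12-fold each), and Gm4340 stood at 2.06 and Gm21663 at 1.66. Family genes of the clusters were among these too, Chil4 at 1.76, Chia1 at 1.73 and Klra7 at 1.72.

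Gene ends also occurred at the other extreme, where control reads were dense. The islands at A530032D15Rik (2231 IP and 2389 control reads, 39800 bp) and at Gm21083 and Speer4d (3102 and 3265 reads, 61800 bp) had folds of 1.06 and 1.08 and were, after that of Sfi1, the widest of the 262. At the shared start region of Exosc8, of the RNA exosome, and Alg5, of N-glycan assembly, the interval of 0.956 to 2.14 included 1 at a fold of 1.43 (59 IP and 47 control reads). The promoter windows of this pair overlap and had 75.7% and 76.0% GC.

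Away from gene ends, the highest fold was that of the island 212 kb from Dthd1, which held 26 IP and 5 control reads (5.91-fold [2.23 to 19.7]). An island 237 kb from Dpyd, the gene of a pyrimidine-degrading enzyme, held 35 and 12 reads (3.31-fold [1.68 to 7.01]). Inside genes, islands in Fam178b (67 IP and 33 control reads, 2.31-fold) and Bank1, a B cell scaffold gene (33 and 17 reads, 2.21-fold), were among the first 10, as was one 45.5 kb from the autophagy gene Atg7 (23 and 11 reads, 2.38-fold). Their widths were 400 to 3200 bp, and none had more than 27.5 control reads per kb.

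The 116 islands that lay outside clusters and under the control line were nearer to shared islands in their values. Their median width was 2400 bp, their median counts 55 IP and 35 control reads, and their median control density 16.2 reads per kb. The median fold was 1.70, and 21 of 116 (18.1%) reached 2-fold. The interval lay above 1 at 94 (81.0% [72.7 to 87.7]). They held 7.03% of the IP reads of the basal list, and 52 of them (44.8%) touched a protein-coding gene.

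Each gene list had at most 1 gene with such an island. Over all protein-coding genes, 127 of 21887 (0.58%) had one in the gene or within 10 kb. Of 42 rapid activity-regulated genes 1 had one (Egr3), of 32 delayed activity-regulated genes 1 (Dclk1), of 34 cortical projection neuron genes 1 (Bcl11b), of 47 synaptic adhesion genes 1 (Lingo2), of 31 BAF subunit genes 1 (again Bcl11b) and of 15 astrocyte genes 1 (Slc4a4). The lists of 20 interneuron, 15 oligodendrocyte lineage and 15 microglia genes had 0, as did 20 liver and muscle genes. In the lists with 1 such gene the shares ran from 2.13% (synaptic adhesion) to 6.67% (astrocyte), above the 0.58% over all genes. With 1 gene in a list, the percentages say no more than that single gene, and neither enrichment nor depletion can be read. Shared basal islands were found at 11 of the 47 synaptic adhesion genes, 2 rapid, 1 delayed and 2 cortical projection neuron genes, at 0 genes of the other lists, and at 1.12% of all protein-coding genes.

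Each of these 5 genes also had KCl islands at other positions. Egr3, an immediate early zinc finger gene on chromosome 14, had its basal island at 70081001 to 70084400, over the gene end, with 56 IP and 41 control reads (1.55-fold [1.02 to 2.38]). The KCl island there ended 0.6 kb away and held 131 IP and 45 control reads (1.83-fold [1.29 to 2.63]). At Dclk1, which encodes a doublecortin-like kinase of neurons, the island lay 0.733 kb outside a gene end with 58 IP and 35 control reads (1.88-fold [1.22 to 2.95]). The nearest of 12 KCl islands in or within 10 kb of Dclk1 was 15.8 kb away (4.90-fold [1.93 to 15.9]). Folds of the 2 lists rest on different controls, so they are set side by side and not compared.

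At Bcl11b, which encodes the transcription factor CTIP2 of deep-layer projection neurons and is also counted as a BAF subunit, the basal island lay inside the gene, 3.54 kb from its end. It held 41 IP and 23 control reads (2.03-fold [1.19 to 3.54]), and a KCl island 3.4 kb away had a fold of 1.47 [1.01 to 2.16]. Inside Lingo2, the gene of a leucine-rich repeat membrane protein, the basal island held 58 IP and 24 control reads (2.75-fold [1.68 to 4.62]) and lay 109.6 kb from the nearest of 8 KCl islands. Inside Slc4a4, a bicarbonate transporter gene expressed by astrocytes, it held 53 and 36 reads (1.67-fold [1.08 to 2.63]), 11.2 kb from the nearest of 10 KCl islands.

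Genes touched by an island without a KCl counterpart were not, as genes, devoid of KCl islands. Of 81 such genes 32 (39.5% [28.8 to 51.0]) also held at least 1 KCl island inside, against 6813 of all 21887 (31.1%). The 32 had a median length of 193 kb, the others of the 81 a median of 23.0 kb and all genes 17.2 kb, so length differs with this count. Long neuronal genes were among the 32. Cntn5, the gene of an adhesion contactin, held 17 KCl islands beside a basal island of 65 IP and 38 control reads (1.94-fold [1.28 to 2.98]). Fyn, a Src-family kinase gene (70 and 43 reads, 1.85-fold), and Gnaq, the gene of the Gq alpha subunit (56 and 33 reads, 1.93-fold), each held 6 KCl islands. Apba1, which encodes an adaptor of synaptic vesicle release, held 5 beside a basal island with the same counts as that of Gnaq. These genes were named after their values had been seen.

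The distance to the nearest KCl island was measured for each of the 262. The median distance was 68.3 kb (interquartile range 15.8 to 185 kb), and the range ran from 0.4 to 2749.2 kb. Within 1 kb of a KCl island lay 6, within 5 kb 30 (11.5%), within 50 kb 113 (43.1%) and within 100 kb 158 (60.3%), and 23 lay farther than 500 kb. The 19 islands over 100 control reads per kb had a median distance of 104.2 kb, the others 65.8 kb. Few islands thus lay close to the overlap limit of the rule. How near a position came to a KCl call of its own is not shown by this distance.

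**Figure D5:**
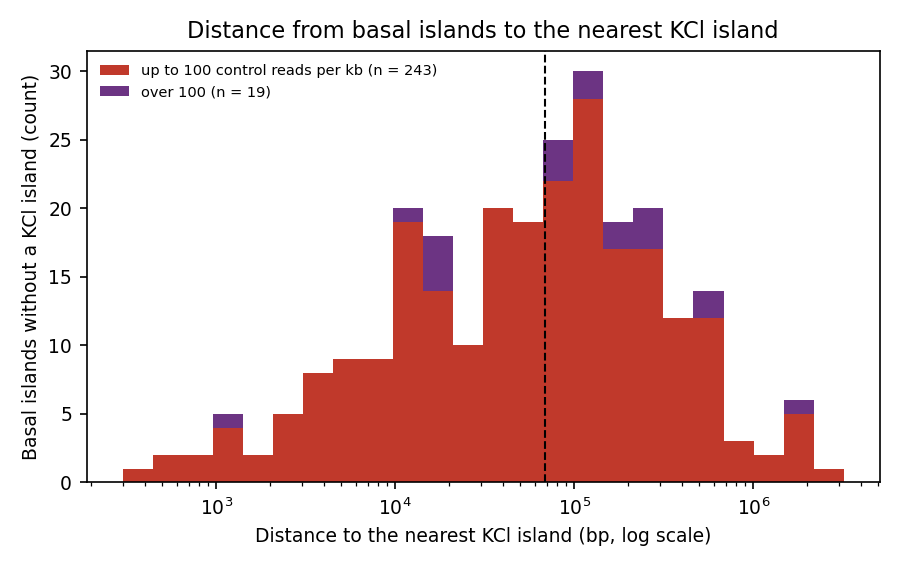
Number of basal islands without a KCl island (vertical) by distance to the nearest KCl island (horizontal, bp, log scale), with stacked bars for islands with up to 100 control reads per kb (red) and over 100 (purple). The dashed line marks the median of 68.3 kb, and 6 islands lie within 1 kb.

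The 5 nearest were those at Chia1 (0.4 kb), Egr3 and Copz1 (0.6 kb each), inside Pde5a and near Klra7 (0.8 kb each). At Chia1 the KCl neighbour had 62 IP and 24 control reads (1.62-fold [0.998 to 2.72]) beside 73 and 48 in the basal island. At Copz1 it had 40 and 13 reads (1.93-fold). Inside Pde5a, a phosphodiesterase gene, the basal island held 65 and 52 reads (1.42-fold [0.971 to 2.09]) and its KCl neighbour 36 and 6 (3.77-fold [1.57 to 10.9]). Near Klra7 the basal fold was 1.23 and the KCl fold 1.16 [0.949 to 1.42].

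On the other side of the rule stood shared islands with small overlaps. Those inside Exoc4 (52 IP and 32 control reads, 1.85-fold) and Map1b (56 and 42 reads, 1.52-fold), which encode an exocyst subunit and a microtubule-associated protein, overlapped a KCl island by 200 and 400 bp, 6.25% and 13.3% of their width. That near Slitrk5, a synaptic adhesion gene, overlapped by 400 bp (15.4%). At Lsamp and Atp6v0d1 the overlap of 200 bp was the whole basal island. That at Lsamp held 18 IP reads against 1 control read, with a fold of 20.5 and an interval from 3.23 to 852. That at Atp6v0d1 held 19 IP reads against 0 control reads, and the lower limit of its fold was 5.30. Both lay above the folds of 1.23 to 1.80 at the 5 nearest islands without a KCl counterpart.

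The reads of the KCl library at the 262 positions are not part of the lists analysed here. A basal island without a KCl island is a place where a call was made in 1 list and not in the other, and the absence of a call does not show the absence of binding.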

How the data were processed

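BRG1/BRM ChIP-seq of 1 basal and 1 KCl IP library was used as deposited. Input files of their own were left out. The submitters' processing notes name BWA (its version is not given in the sources used here), build mm10 (GRCm38) and the island caller SICER 1.0. File names of the lists state 200 bp windows, 600 bp gaps and FDR 0.01. Per island, the authors deposited raw counts of IP and of control reads, a p-value with its FDR, and a fold, which is the IP/control ratio over a constant of each library (0.880 basal, 1.59 KCl). Which input served as control is not stated in the labels. Total depth is not given in the sources used here. The basal islands held 142021 IP and 130865 control reads, and 18 reads was the smallest IP count.

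Coordinates were made 1-based, and overlap required at least 1 bp (own code in Python 3.11.15, pandas 2.3.3, checked against bedtools 2.31.1 and tested on simulated data). Genes were the 21887 protein-coding genes of RefSeq's GRCm38.p6 table, which gives no strand, exons or UTRs. Transcript starts came from RefSeq's promoter table (32851 entries of 27025 genes), in which islands on 1 chromosome could not be placed. No genome sequence of the islands was used here. Shares have 95% exact (Clopper-Pearson) intervals (scipy 1.17.1), and fold intervals come from the exact binomial interval of IP reads among IP and control reads. The library ratio is taken as exact. Reads carry no molecular identifiers in these files, so intervals cover counting error only. With 1 library per condition no test was made.

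The members, the 10 gene lists and the name classes were chosen with earlier results of these data known. Islands named were all over 100 control reads per kb, the first 10 by fold with at least 20 IP reads among the others, the first 20 by fold within 2 kb of a gene end, those within 10 kb of a listed gene, the 5 nearest to a KCl island and the 5 shared islands of least overlap, the first 10 by FDR at or under 1e-05 and the 3 widest. Each is named by the nearest gene end or the gene around it. Not every island that these rules select is reported here. Alternatives for overlap, thresholds, windows and intervals were computed.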

Additional observations from a re-analysis of the deposited data

How the results depend on the processing

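Between 232 and 345 basal islands had no KCl island when the overlap, the gap counted as shared or the KCl list was changed, against 262. Restricting the basal list itself left 31 at an FDR of at most 1e-05 and 29 at 2-fold or more. The line of 50 control reads per kb set 35 islands apart, against 19 at 100 and 15 at 200. The share at gene ends was 25.2% with a window of 5 kb and 8.78% by the island midpoint, against 16.0%. Among the 29 islands of at least 2-fold it was 24.1% [10.3 to 43.5]. Among the 31 with an FDR of at most 1e-05 it was 12.9% [3.63 to 29.8]. These intervals overlap and both hold 16.0%, so no direction of change can be read. The share touching a gene was 51.9% with all annotated genes in place of protein-coding genes (34.7%), and the share at transcript starts 19.3% with a window of 5 kb (11.8%). The interval lay above 1 at 36.6% of the islands when it was widened to 99% and at 35.9% when the library ratio was 10% larger, against 78.6%. The median distance to a KCl island was 195.8 kb when only KCl islands with an FDR of at most 1e-05 counted, against 68.3 kb. The share in clusters was 35.9% with a gap of 100 kb and 53.4% with 1 Mb, against 49.2%. The cluster gaps, the larger library ratio and the share at gene ends outside clusters (15.8%) were added after the data had been seen. Wider windows and stricter lists raise or lower counts by their construction. No cause of the gene-end share among 2-fold islands was tested.

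No paired analysis was possible because each condition had 1 IP library. Leaving out a replicate was not possible for the same reason. Depth limits what single islands show, since the median counts were 69 IP and 49 control reads.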

Other observations

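The island at Alg10b also contained the hairpin of the microRNA gene Mir7648 (chromosome 15, 90224360 to 90224412, plus strand), which begins at the last base of the promoter window printed for Alg10b. The mature sequences, from RefSeq's table for GRCm38.p6, are given with the seed (bases 2 to 8) in capitals. No other microRNA of that table lay inside one of the 262 islands.
mmu-miR-7648-5p: cCGCGUUCcgggcucggcgc
mmu-miR-7648-3p: aGGGCUGGgcccgggacgcgg

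The shared island with the smallest covered share had the values of the dense islands. It lay 152 kb from 9530057J20Rik on chromosome 8 (20087201 to 20134800), was 47600 bp wide and overlapped a KCl island by 1400 bp, 2.94% of its width. It held 1740 IP and 1844 control reads (1.07-fold [1.00 to 1.15]), 38.7 control reads per kb.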
